A study of Homo sapiens with 6 samples.

Results

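The epidermal differentiation complex on human chromosome 1 holds the genes that build the outer layer of the skin, together with most of the S100A genes. The members were the protein-coding genes between 151.9 and 153.7 Mb of chromosome 1 (hg19) whose symbols place them in the LCE, SPRR, S100A, FLG, LOR, IVL, CRNN, HRNR, RPTN or TCHH groups. The rule found 55 of 20098 protein-coding genes, which lie in 18 consecutive 100 Kb bins of 30376 bins on the 22 autosomes and chromosome X. The 10 flanking bins, 5 on each side, were described with them. No measured value entered the rule, although the locus was picked with earlier results of these data known.

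T47D is an established breast cancer cell line of luminal type that carries the estrogen receptor. Tethered chromatin conformation capture (TCC), a form of Hi-C with ligation on a solid surface, was performed on parental T47D cells starved of hormone for 72 h (T0), on such cells 1, 4, 16 and 24 h after the addition of 100 nM estradiol (E2; T1, T4, T16 and T24), and on T47D TamR cells, a tamoxifen-resistant line. The TamR cells carry the label untreated, whereas the study's methods describe TamR cells kept in hormone-stripped medium with tamoxifen, so resistance, culture medium and drug cannot be told apart in the TamR library. Each condition has 1 library, so that differences between conditions lack a replicate check and were not tested.

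The authors deposited a score for each 100 Kb bin and library, taken as the leading eigenvector of contacts between chromosomes after correction and printed here multiplied by 1000. Bins above 0 belong to compartment A (active) and those below 0 to compartment B (inactive). The squared deposited scores of a library sum to between 0.998 and 0.999, so that a score has meaning only beside the remaining bins from the same library. Scores in all 6 libraries were present for 27898 bins, the 18 member bins among them, and contact counts are not in these files, which leaves the depth of each library unknown here. Across all bins, Pearson's r with T0 was 0.985 to 0.994 for the E2 libraries and 0.894 for TamR. A score is an average over all cells of a library, so a shift in every cell and a larger share of cells with active chromatin cannot be told apart, and no RNA was measured here. Of the 6 luminal breast marker genes, all lay in A in the parental libraries, whereas ESR1, the estrogen receptor gene, scored 4.90 at T0 and -0.0508 in TamR, and GATA3, a luminal transcription factor, 2.12 and -0.790. TamR was below all parental libraries in 4 of the 6 markers, beside 45.9% of all protein-coding genes. TamR was within the parental range in KRT8 and KRT18, luminal keratins that share a bin, with 13.3 at T0 and 13.9 in TamR. The ESR1 score in TamR lay just below the border of 0 and above the median of all scored bins in TamR, -0.429. ESR1 spans chr6:151977826-152450754, and its score is that of the 100 Kb bin with its annotated start only, so the rest of the gene was not examined.

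In the upper epidermis, keratinocytes stop dividing, fill with keratin and replace their membrane by the cornified envelope, a shell of cross-linked protein. Involucrin, loricrin, the small proline-rich (SPRR) proteins and the late cornified envelope (LCE) proteins are cross-linked into this shell by transglutaminases. Filaggrin and its relatives, the S100-fused proteins, begin with an S100 calcium-binding domain, and filaggrin bundles keratin filaments. The S100A proteins are small calcium sensors, several of which are secreted and act in inflammation and in tumour cells. Breast epithelial cells use some S100A genes, while the envelope genes are best known from stratified epithelia.

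The locus formed a valley of compartment score between 2 strongly active neighbours, and this valley was deepest at T0, shallower in all 4 E2 libraries and shallowest in TamR. The median over the 18 member bins was 1.24 at T0, 2.25 at T1, 2.95 at T4, 3.06 at T16, 3.41 at T24 and 6.18 in TamR. The mean over the 10 flanking bins, in contrast, stayed between 10.2 and 10.9 in the 6 libraries. The distance from the flanking mean down to the member median was therefore 9.01 at T0, 7.39 to 8.04 in the E2 libraries and 4.33 in TamR. Ranked among all scored bins, the member bins had a median percentile of 60.1 at T0, 66.1 at T1, 68.6 at T4, 69.8 at T16, 73.1 at T24 and 82.3 in TamR, while the flanking bins had a median percentile between 93.0 and 94.0 throughout.

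**Figure D1:**
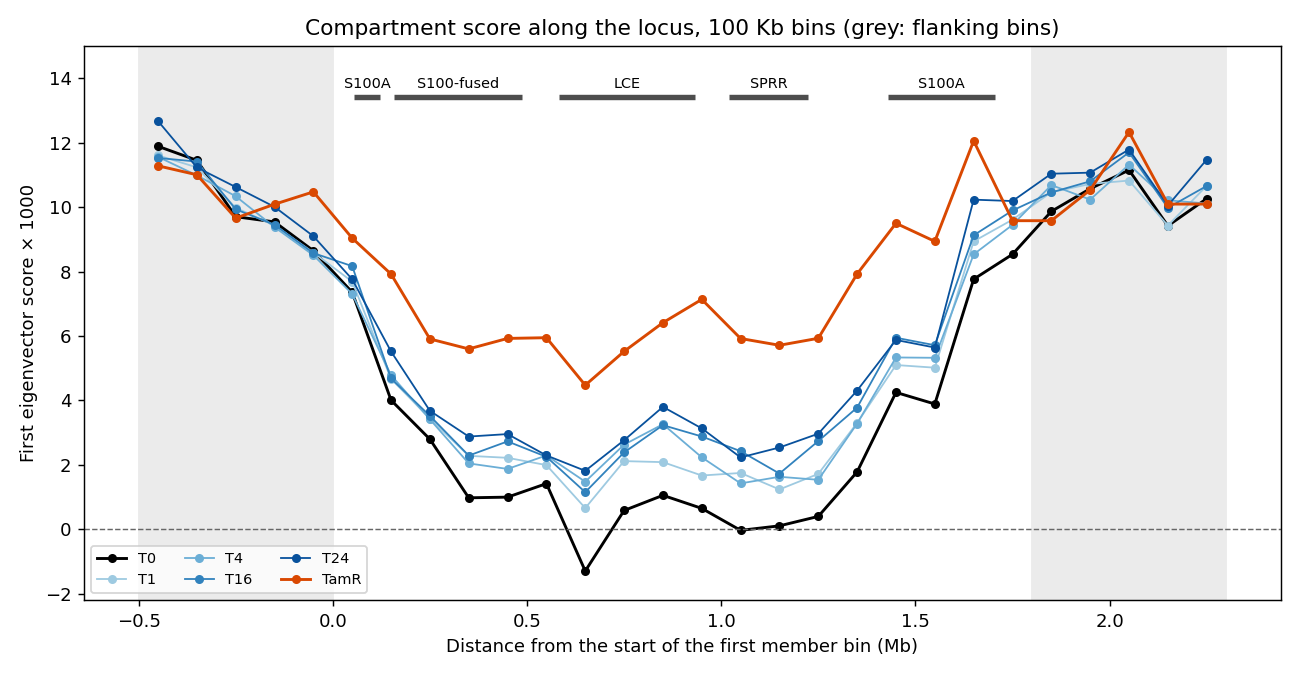
First eigenvector score multiplied by 1000 (vertical axis) of each 100 Kb bin against the distance in Mb from the start of the first member bin, with 1 line per library, flanking bins shaded grey and the extent of the S100A, S100-fused, LCE and SPRR genes drawn above. The black T0 line dips to -1.29 over the LCE3 genes, the 4 blue E2 lines lie above it in 17 of the 18 member bins, and the orange TamR line stays at or above 4.47.

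At T0 the share of members in compartment A was near that of protein-coding genes in general. By gene, 46 of the 55 members were in A at T0, or 83.6%, beside 77.7% of all protein-coding genes, and all 55 were in A in each other library, beside 78.4% of all protein-coding genes in TamR. By bin, at T0 16 of the 18 member bins were in A, or 88.9% (95% Wilson interval over bins 67.2 to 96.9%), and in each of the other 5 libraries all 18 were (82.4 to 100%). Of all scored bins, most of which hold no gene start, 46.2% were in A at T0 and 47.6% in TamR. Neighbouring bins are not independent and genes of 1 bin share 1 score, so the intervals are too narrow.

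The sequences just upstream of the members differ in ways that follow the families. Of the 55 members, 52 have a promoter entry in RefSeq (GRCh38.p14), which runs from 250 bases before the gene's start to 50 after it, and each was found once in GRCh37. CpG dinucleotides, which are dense in the promoters of housekeeping genes, numbered 3 at the median of the members and 22 over all 15318 protein-coding genes with an entry. The letters TATAAA, the core of a TATA box, occurred on either strand in 28 of 52 members (53.8%) and in 9.59% of all entries. By family, they were found in 5 of 16 S100A genes, 5 of 7 S100-fused genes, 9 of 18 LCE genes and 8 of 9 SPRR genes. TGAGTCA, the site of the AP-1 factors that switch on many keratinocyte genes, occurred in 9 members (17.3%) and in 3.68% of all entries. It was found in 5 of 9 SPRR genes, in both IVL and LORICRIN and in none of the 18 LCE genes. AGGTCA, the repeat unit of an estrogen response element, occurred in 13 members (25.0%) and in 11.5% of all entries. These 3 motifs do not contain each other, and a match is no more than a match of letters. Some members have almost the same promoter sequence, such as S100A7 and S100A7A or LCE2C and LCE2D, so the members are not independent. The 120 bases before the start follow for a CpG-rich S100A gene, for a gene of each envelope family and for S100A7, 5′ to 3′ on the gene's strand with GRCh37 coordinates, with TATAAA and TGAGTCA in capitals.
S100A10 (chr1:151966336-151966455, minus strand): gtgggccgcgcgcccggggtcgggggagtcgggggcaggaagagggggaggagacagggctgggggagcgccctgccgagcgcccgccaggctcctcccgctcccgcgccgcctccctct
FLG (chr1:152297716-152297835, minus strand): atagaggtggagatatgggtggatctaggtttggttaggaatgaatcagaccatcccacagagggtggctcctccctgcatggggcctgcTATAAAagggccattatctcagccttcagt
LCE3D (chr1:152552993-152553112, minus strand): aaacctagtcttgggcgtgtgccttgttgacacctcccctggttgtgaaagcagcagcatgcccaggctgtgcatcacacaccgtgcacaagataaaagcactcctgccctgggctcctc
SPRR1A (chr1:152956437-152956556, plus strand): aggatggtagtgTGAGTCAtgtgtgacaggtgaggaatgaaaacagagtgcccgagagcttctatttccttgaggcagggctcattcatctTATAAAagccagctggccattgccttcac
SPRR3 (chr1:152974105-152974224, plus strand): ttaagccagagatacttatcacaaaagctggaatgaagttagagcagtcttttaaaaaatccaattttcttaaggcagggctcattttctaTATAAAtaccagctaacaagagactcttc
LORICRIN (chr1:153232043-153232162, plus strand): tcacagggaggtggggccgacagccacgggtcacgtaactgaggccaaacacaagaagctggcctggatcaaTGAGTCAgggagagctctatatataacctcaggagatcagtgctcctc
S100A7 (chr1:153433128-153433247, minus strand): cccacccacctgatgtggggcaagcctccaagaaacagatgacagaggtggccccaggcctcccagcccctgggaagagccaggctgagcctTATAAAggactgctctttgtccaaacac

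S100A10, with 32 CpG in its promoter entry, has neither motif, and among the members S100A6 came next with 31 CpG. In SPRR1A, TGAGTCA begins at position -108 and TATAAA at -29, where -1 is the base before the start, and in LORICRIN TGAGTCA begins at -48. TATAAA begins at -30 in FLG, at -29 in SPRR3 and at -28 in S100A7, whereas LCE3D has neither motif in these bases. The compartment scores resolve 100 Kb and so cannot separate the promoters of neighbouring members.

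The S100A genes sat on both rims of the valley and were in A in every library. On the left rim, S100A10, which encodes the annexin A2 partner p11, lay in a bin with scores of 7.36 at T0, 7.69 at T1, 7.30 at T4, 8.17 at T16, 7.76 at T24 and 9.04 in TamR. Here T4 was slightly below T0, the only member bin in which an E2 library was. In the next bin, S100A11, a regulator of keratinocyte growth, shares its score with TCHHL1 and TCHH, which scored 4.01, 4.67, 4.78, 4.68, 5.52 and 7.92 in the same order of libraries. The TamR score of this bin lay 2.40 above the highest parental score, more than the 1.51 that separated the lowest from the highest parental library.

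On the right rim the genes of the inflammatory S100 proteins came first. The bin from S100A9 to S100A7A also holds S100A12 and S100A8, whose product pairs with S100A9 to form calprotectin, and scored 4.25 at T0, 5.10 at T1, 5.33 at T4, 5.95 at T16, 5.88 at T24 and 9.50 in TamR. S100A7, encoding psoriasin, is the sole member starting in the following bin, with 3.89, 5.02, 5.32, 5.71, 5.64 and 8.94. In both bins T0 was lowest and TamR was above all 5 parental libraries. Among all scored bins, TamR was above all 5 in 35.0% and below all 5 in 43.6%. The S100A7 bin was a notch in the slope, as its score minus the mean of the bins on either side was negative in all 6 libraries, from -1.61 at T4 to -2.41 at T24.

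The 7 genes from S100A6 to S100A14, among them S100A4, which is known for its part in cell motility, start in 1 bin with scores of 7.76, 8.94, 8.53, 9.12, 10.2 and 12.1. The TamR value was the highest score of any member bin in any library and stood at percentile 97.2 of the TamR library. The last bin, with S100A13 and S100A1, scored 8.53 at T0, 9.61 at T1, 9.45 at T4, 9.89 at T16, 10.2 at T24 and 9.58 in TamR. It was the only member bin in which TamR lay inside the parental range. S100A13, which spans chr1:153591263-153603836, crosses from the bin of S100A6 to S100A14 into this one, so the edge of the TamR excess fell inside it at the resolution of 100 Kb.

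The S100-fused genes line the left slope and floor of the valley. RPTN and HRNR, encoding repetin and hornerin, scored 2.80 at T0, 3.44 at T1, 3.41 at T4, 3.52 at T16, 3.68 at T24 and 5.91 in TamR. FLG, which encodes filaggrin and spans chr1:152274641-152297715 on the minus strand, scored 0.979, 2.28, 2.05, 2.29, 2.88 and 5.60. FLG2 and CRNN, the genes of filaggrin-2 and cornulin, scored 0.999, 2.22, 1.87, 2.73, 2.96 and 5.92. In these 3 bins the T0 score was lowest, the E2 scores lay between, and TamR was 2.23 to 2.97 above the highest parental library.

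The LCE genes contain the lowest point of the locus. LCE5A, at their left end, scored 1.42 at T0, 1.99 at T1, 2.29 at T4, 2.25 at T16, 2.29 at T24 and 5.95 in TamR. The bin of LCE3E, LCE3D, LCE3C, LCE3B and LCE3A, genes linked to epidermal repair, scored -1.29 at T0, 0.660 at T1, 1.48 at T4, 1.15 at T16, 1.82 at T24 and 4.47 in TamR. It was in B at T0 only and was the lowest member bin in every library but T4. Its score minus the mean of its neighbours was negative in all 6 libraries, with -2.29 at T0, -0.713 at T24 and -1.26 in TamR, so the dip over LCE3 persisted in TamR while the whole floor was higher.

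The LCE2 genes and LCE4A scored 0.585 at T0, 2.12 at T1, 2.63 at T4, 2.39 at T16, 2.77 at T24 and 5.52 in TamR. The LCE1 genes, from LCE1F to LCE1A, scored 1.06, 2.09, 3.26, 3.23, 3.80 and 6.41. In the LCE1 bin T1 lay near the middle between T0 and the 3 later E2 libraries. LCE6A and LCE7A share their bin with IVL, the gene of involucrin, an early part of the envelope, and scored 0.650 at T0, 1.67 at T1, 2.23 at T4, 2.88 at T16, 3.13 at T24 and 7.14 in TamR. Each later E2 library was higher than the one before it in this bin. The TamR score lay 4.00 above the highest parental score, the widest such gap among the members.

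The SPRR genes lay closest to the border at T0. SPRR5, SPRR4, SPRR1A and SPRR3 start in a bin with scores of -0.0315 at T0, 1.75 at T1, 1.43 at T4, 2.42 at T16, 2.23 at T24 and 5.92 in TamR. This was the other member bin in B at T0, and both it and the LCE3 bin drop out when bins with weak scores in any library are excluded. The bin of SPRR1B, SPRR2D, SPRR2A, SPRR2B, SPRR2E and SPRR2F scored 0.108, 1.24, 1.63, 1.73, 2.54 and 5.71, and that of SPRR2G 0.401, 1.72, 1.54, 2.74, 2.97 and 5.93. The 3 SPRR bins lay close together in TamR, between 5.71 and 5.93, and were in A in all libraries treated with E2. LORICRIN, encoding the most abundant envelope protein of the skin, scored 1.78 at T0, 3.30 at T1, 3.28 at T4, 3.78 at T16, 4.31 at T24 and 7.93 in TamR.

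**Figure D2:**
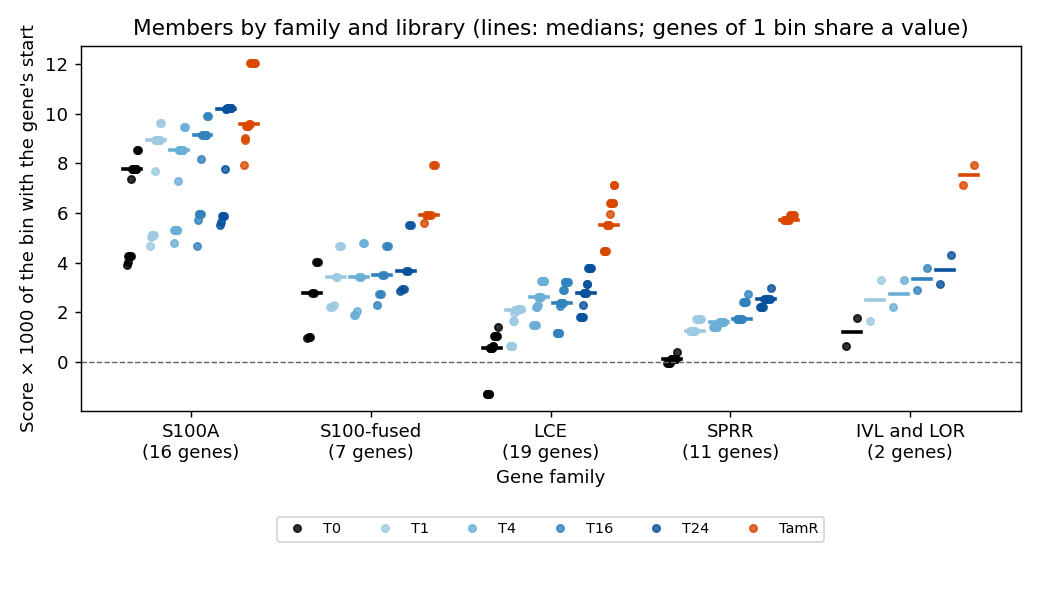
Score multiplied by 1000 (vertical axis) of the bin holding each member's start, by gene family (horizontal axis) and library (colour), with each point a gene and each short line the median of the family. The S100A genes spread from 3.89 to 8.53 at T0, the LCE and SPRR genes lie between -1.29 and 1.42 at T0, and all members are at or above 4.47 in TamR.

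The comparison of T0 with the E2 libraries asks what the chromatin of starved cells looked like beside that of stimulated cells. T0 was below all 4 E2 libraries in 17 of the 18 member bins, a pattern that 23.1% of all scored bins showed. The mean of the 4 E2 scores minus T0 was 0.373 to 2.57 over the member bins, with a median of 1.49, and the largest difference lay over the LCE3 genes. Over all bins the median difference was -0.0185, the 95th percentile 1.13 and the 99th 1.76, and 14 member bins exceeded the former and 7 the latter. The flanking bins had a median difference of 0.196. The median difference from T0 over the member bins was 1.13 for T1, 1.11 for T4, 1.71 for T16 and 2.07 for T24. These 4 differences share the T0 library, so a T0 library that deviated for any reason would shift all of them together, which could not be checked with 1 library per condition.

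Only the LCE3 bin and the bin from SPRR5 to SPRR3 changed sign, from B at T0 to A, and they did so in each of the 4 E2 libraries and in TamR. Among all bins, a change from B at T0 to A was seen in 1.51% at T1, 1.89% at T4, 1.94% at T16, 1.51% at T24 and 7.67% in TamR, and no member bin changed from A to B. Because TamR was compared with the same T0 library, these 2 bins in TamR are no separate observation, and they were in A in all 4 E2-treated parental libraries as well. With bins averaged to 300 Kb, no member bin was in B in any library.

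Within the time course the 24 h library was most often on top. T24 exceeded the other 4 parental libraries in 14 member bins, against 29.4% of all scored bins. In the other 4 member bins, those of S100A10, of SPRR5 to SPRR3, of S100A9 to S100A7A and of S100A7, T16 was the highest parental library. The lead of T24 was not particular to the members, as T24 was the highest parental library in most flanking bins too. Over the flanking bins, T24 was above T0 in 9 of 10, with a median difference of 0.633. The distance from the flanking mean to the member median was 7.39 at T4, 7.39 at T16 and 7.50 at T24. The order of T1 and T4 changed from bin to bin, as T4 was higher over LCE1 (3.26 against 2.09) and lower over the FLG2 and CRNN bin (1.87 against 2.22).

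**Figure D3:**
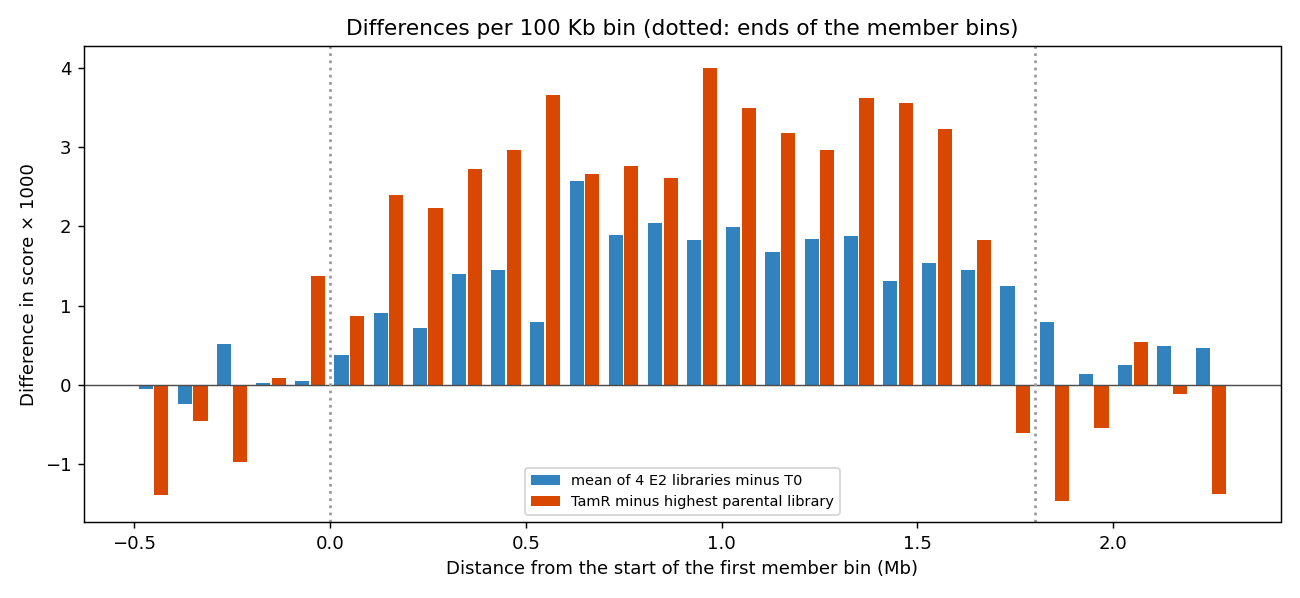
Differences in score multiplied by 1000 (vertical axis) per 100 Kb bin against the distance in Mb from the start of the first member bin, with blue bars for the mean of the 4 E2 libraries minus T0 and orange bars for TamR minus the highest parental library. Both differences are positive over the member bins, between the dotted lines, except for TamR in the last one at -0.610, and the orange bars reach 4.00 in the bin with IVL.

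The comparison of TamR with the 5 parental libraries asks how the resistant line differs from its parent. TamR was above all 5 parental libraries in 17 of the 18 member bins, beside 35.0% of all scored bins, and below all 5 in none, beside 43.6% of all scored bins. The TamR score minus the parental mean was 0.0429 to 5.02 over the member bins with a median of 3.75, whereas the median over all bins was -0.255 and that over chromosome 1 was -0.343. The flanking bins had a median of -0.203. The size of the shift was not extreme in the genome, since the 95th percentile over all bins was 4.85 and 1 member bin, that of LCE6A, LCE7A and IVL, exceeded it. The only measure of spread in these data is that among the parental libraries, which differ in treatment. The gap between TamR and the highest parental score exceeded the whole parental range in 14 of the 18 member bins and exceeded 2 such ranges in 3. These counts were not made over all scored bins, so how common such gaps are in the genome is unknown here. The gap had a median of 2.86 over the member bins, while over all bins its median was -0.841 and its 95th percentile 4.24.

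By family, the median difference of TamR from the parental mean was 3.14 for the 16 S100A genes, 3.19 for the 7 S100-fused genes, 3.71 for the 19 LCE genes, 4.26 for the 11 SPRR genes and 4.83 for IVL and LORICRIN, and it was -0.448 over all protein-coding genes. The families start in only 6, 4, 5, 3 and 2 bins in that order, and genes of 1 bin share 1 score. IVL also shares its bin with LCE6A and LCE7A, so the family medians are not independent and their order was not tested. The stretch of consecutive bins with TamR above all parental libraries covered chr1:151700001-153600000, 19 bins long, and so took in the 2 flanking bins left of S100A10. Of 1519 such stretches in the genome, 136 were at least as long, the longest had 131 bins and the median had 2. On the right, the stretch ended at a bin border inside S100A13, and TamR was below all parental libraries in the first flanking bin, that of INTS3, with 9.58 against 9.87 to 11.0.

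GC content, which the rule did not use, was 37.8 to 49.7% in the member bins with a median of 42.1%, between the 39.8% of all bins and the 45.1% of the flanking bins. Across the 18 member bins, Pearson's r between GC content and score was 0.787 at T0 and 0.852 in TamR, and over all bins it was 0.713 and 0.720. These are correlations across neighbouring bins of single libraries, which are not independent. The 12 other protein-coding genes of the member bins, such as KPRP, SMCP and PGLYRP3, carry the scores of the members beside them.

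Genes of the same pathway on other chromosomes did not share one direction. Of 20 cornified envelope and barrier genes elsewhere, 17 were in A in all 6 libraries, TamR was above all parental libraries in 5 and below all in 8, and none changed compartment between T0 and TamR. Farthest below were ALOX12B, encoding a lipid barrier enzyme, with 14.1 at T0 and 11.0 in TamR, TGM1, whose product cross-links the envelope, with 8.04 and 5.97, and ABCA12, the gene of a lipid transporter, with 3.50 and 1.79. Farthest above were DSC1, encoding a desmosomal cadherin, with -1.60 at T0 and -0.245 in TamR, and CSTA, encoding the envelope protein cystatin A, with 2.45 and 3.82. For comparison, by gene, TamR was above all parental libraries in 53 of the 55 members, and in 30.2% of all protein-coding genes, and below all in 45.9% of them.

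Of 7 regulators of epidermal differentiation, TamR was above all parental libraries in 5, beside 30.2% of all protein-coding genes. KLF4, a factor required for the skin barrier, scored 1.58 at T0, 0.738 to 2.63 in the E2 libraries and 6.36 in TamR. TP63, the master factor of stratified epithelia, scored 1.62 at T0, -0.362 to 1.21 in the E2 libraries and 5.46 in TamR. TP63 spans chr3:189349178-189615065, and its score is that of the bin with its annotated start only, so later starts in the gene were not examined. PRDM1, which acts late in keratinocyte differentiation, scored -0.0160 at T0, -1.08 to 0.404 in the E2 libraries and 1.84 in TamR. OVOL1, a repressor of progenitor growth, was lower in TamR, with 14.7 against 16.4 at T0. Unlike the members, KLF4 and TP63 were at their lowest parental score at T24, so the members' order of T0 below E2 was not theirs. Over the 7 regulators the median E2 mean minus T0 was -0.350. The order was not confined to the locus, as ZNF750 scored 13.5 at T0 and 13.7 to 15.8 in the E2 libraries. The barrier genes KLK5 and KLK7, which share a bin, scored 6.69 at T0 and 8.26 to 9.09 in the E2 libraries.

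Of 5 partners and receptors of S100 proteins, TamR was above all parental libraries in 1 and below all in 3. Among all protein-coding genes it was above all in 30.2% and below all in 45.9%. The gene above was ANXA2, the partner of S100A10, with 2.62 at T0 and 6.17 in TamR. ANXA1, encoding a related annexin, scored -0.819 at T0 and -3.56 in TamR. TLR4 and AGER, genes of receptors for S100A8 and S100A9, were also below all parental libraries in TamR, but by little. TLR4 scored -7.55 in TamR and AGER 12.79, against -7.39 and 12.81 at T0, the lowest parental library for both. Of the 4 S100 genes on other chromosomes, all in A in every library, TamR was above all parental libraries for S100P (8.07 against 7.44 at T0) and below all for S100B and S100G. Both lists are too short to set apart from the shares of all protein-coding genes.

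**Figure D4:**
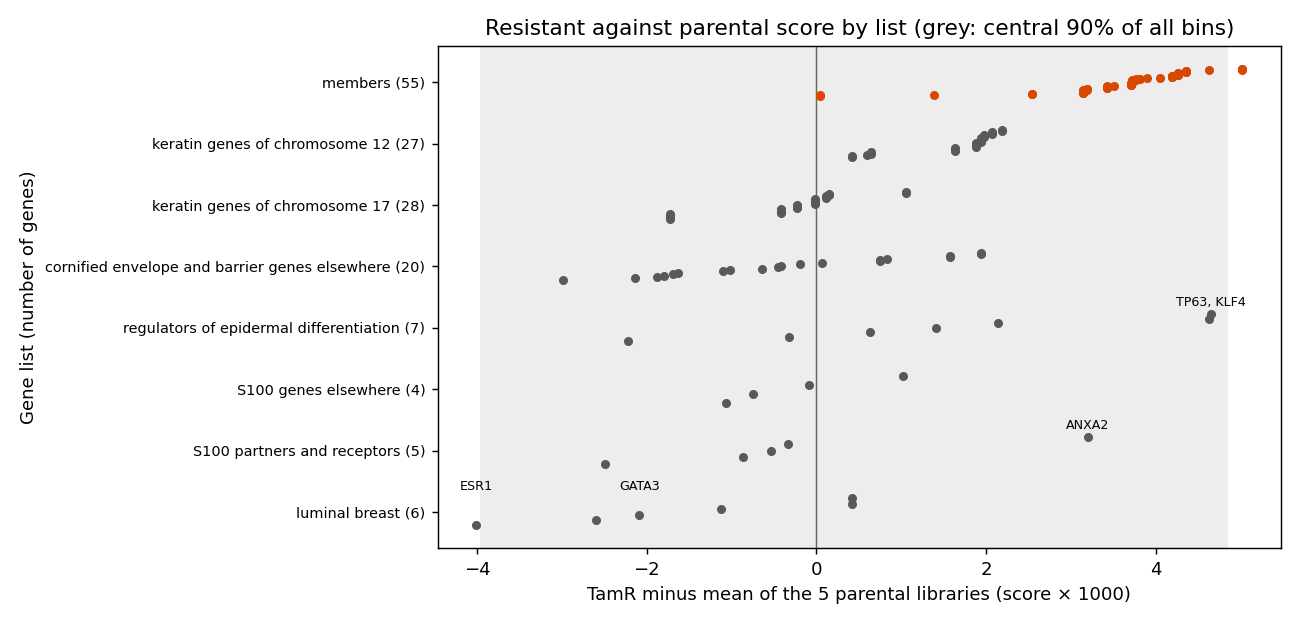
TamR score minus the mean of the 5 parental scores, multiplied by 1000 (horizontal axis), for each gene of the members and of 7 other lists (vertical axis, with the number of genes), with each point a gene and the central 90% of all bins shaded. All 55 members lie above 0, up to 5.02, while the other lists except the keratin genes of chromosome 12 lie on both sides of 0.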

How the data were processed

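TCC compartment scores of 6 T47D libraries were analysed, 1 for each condition. The authors deposited 1 score per 100 Kb bin of hg19 and library. Per the study's methods, low-coverage bins were dropped, extreme counts between chromosomes were capped, the matrix underwent iterative correction, contacts inside a chromosome were set aside and the first eigenvector was taken with HiCLib. A score of 0, which marks a bin without a value, was left out. The files hold no contact counts, so depth is unknown. Groups came from the sample labels. Each gene took the score of the bin with its start (GENCODE v44 on GRCh37; chromosome lengths were checked against the hg19 bins), with 0 as the border of the compartments. Member bins are those that overlap a member. Values for every member bin are printed. Of the other lists, at most 5 genes each were named by rule. Those changed compartment between T0 and TamR or lay farthest outside the parental range in either direction. Beside them KRT8, KRT18, ZNF750, KLK5, KLK7 and keratin genes of single bins were named, chosen after their values were seen. The members and lists were chosen with earlier results of these data known. With 1 library per condition, no p-value was computed. Shares carry 95% Wilson intervals, which cover counting error only. Python 3.11.15, numpy 2.4.6, pandas 2.3.3 and matplotlib 3.10.9 were used, and the calls were tested on simulated scores. The alternatives were another border, weak bins left out, 300 Kb bins, ranks or scores divided by their SD, other ways of assigning genes and flanks, another reference, smoothing, and libraries left out in turn.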

Additional observations from a re-analysis of the deposited data

How the results depend on the processing

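Of 102 values computed under alternatives for 26 results, 79 stayed within the limits set for no change, and 23 moved. The moved values concern T0 and the choice of bins near the border. The share of member bins in A at T0 (88.9%) was 100% with weak bins left out (absolute score in the lowest 10% of any library), which keeps 12 member bins, and 100% in 300 Kb bins, of which 7 hold members. The share of member genes in A at T0 (83.6%) was 100% in 300 Kb bins. The share of member bins changed from T0 (11.1% for T1, T4, T16, T24 and TamR alike) was 0% for each of the 5 libraries under weak bins left out, under 300 Kb bins and with the majority of the parental libraries as reference. The 4 places where the sign changes along the locus at T0 were 2 with the border at the median score and 0 with a running mean over 3 bins. The share of member bins with T0 below all 4 E2 libraries (94.4%) was 100% with ranks, in 300 Kb bins and without T4, alternatives chosen after seeing the data. The share with TamR above all parental libraries was 94.4% with ranks, with scores divided by their SD and without each parental library in turn, and 85.7% in 300 Kb bins. No paired analysis was possible because there is only 1 library for every condition.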

Other observations

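The 2 keratin gene clusters, whose products form the filaments that filaggrin bundles, gave different values in TamR. On chromosome 12, which holds the type II keratin genes, all 27 keratin genes were in A in all 6 libraries, with a median score of 9.94 at T0 and 11.8 in TamR, and TamR was above all parental libraries in 24. On chromosome 17, which holds type I keratin genes, all 28 were in A in all 6 libraries, with a median of 12.5 at T0 and 12.5 in TamR, and TamR was above all parental libraries in 2 and below all in 6. Among all protein-coding genes, TamR was above all parental libraries in 30.2% and below all in 45.9%. The median of TamR minus the parental mean was 1.89 on chromosome 12 and -0.234 on chromosome 17, beside 3.73 for the 55 members. The median E2 mean minus T0 was 0.182 on chromosome 12 and 0.459 on chromosome 17, against 1.68 for the members. Some bins of both clusters nevertheless had T0 below all 4 E2 libraries. On chromosome 17 this difference reached 1.41 in the bin of KRT10 and 1.11 in that of KRT39 and KRT40. On chromosome 12 it ranged from -0.435 in the bin of KRT6A to 0.701 in that of KRT1. The genes of a cluster share few bins, 9 on chromosome 12 and 7 on chromosome 17, and no test of the difference between clusters was made.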
